A study of Mus musculus with 6 samples.

Results

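Chil1, Lcn2 and 8 further genes that astrocytes switch on when they become reactive were followed in the mouse vermis, the middle strip of the cerebellum. The genes were picked by symbol (Chil1, Lcn2, Serpina3n, Timp1, Cp, Osmr, S1pr3, Cd44, Steap4 and Vim), and all 10 were found among the 21927 rows of the deposited gene table. The vermis of 8-week-old dCas mice, the controls (n = 3), was compared with that of LINE-1a mice of the same age (n = 3), in which the study describes the retrotransposon LINE-1 as activated. The labels give each animal's strain only as dCas or LINE-1a, so the sources used here do not give the alleles, the promoter that drives them or any background that the strains share. Each mouse gave 1 library of total RNA, and the values below are normalized counts, meaning reads divided by 1 size factor per library. Nothing in the labels says whether litters or days were shared, so errors measure only the spread between these mice. The genes were chosen by their known role and on the LINE-1a minus dCas differences of these same normalized counts, in which Chil1 and Lcn2 had stood out as lower. Their differences between the groups are therefore given as descriptions and support nothing.

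Reactive astrocytes are the state that astrocytes enter after injury, infection or inflammation. Cytokines of the interleukin-6 family act through the shared receptor chain gp130 and the transcription factor STAT3, and NF-kB and C/EBP factors act beside them, to raise intermediate filaments, secreted proteins and receptors. In the cerebellum the astrocytes include the Bergmann glia, whose fibres run along Purkinje cell dendrites. Most of the genes described here are also made by other cells, such as endothelium, microglia, meninges or choroid plexus, so whole-tissue RNA does not assign them to astrocytes.

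Sequencing depth in the gene table was 23483158 to 33445789 reads, and 1 read was worth 0.667 to 0.807 normalized counts. Y-linked genes put 2 libraries, LINE-1a 1 and LINE-1a 2, as female and the other 4 as male, so sex and group are partly confounded. The tissue label was matched by its markers: all 5 Purkinje cell and all 5 granule cell markers passed the minimum mean of 10, with summed counts of 76046 to 123351 and 55986 to 86142. Choroid plexus, the secretory tissue of the ventricles, differed widely between libraries of both groups, with a median log2 fold change of 1.11 over its markers and 0 of 10 past the limma threshold. The sum of its 10 markers reached 149105 (dCas 1), 44433 (LINE-1a 2) and 159493 (LINE-1a 3), against 8292 to 8708 in the other 3 libraries. Ttr, the marker of highest mean in both groups, ran from 144 in dCas 3 to 102965 in LINE-1a 3. In the 3 libraries of low sum, Enpp2 (6679 to 6878) lay above Ttr (144 to 1208) and made up most of the sum. No marker of any list was at 0 in all 6 libraries.

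Promoter sequence is shown for Chil1, whose groups were farthest apart relative to their spread, and for Steap4, the only one of the 10 with a STAT motif. Bases are from RefSeq (GRCm38.p6), 5′ to 3′ on the gene's strand, upstream of the start and free of the gene's own GENCODE exons. Capitals mark matches to the NF-kB consensus, to a C/EBP motif (TTNNGNAA) or to a STAT motif (TTCNNNGAA).
Chil1, chr1:134181906-134182155, plus strand: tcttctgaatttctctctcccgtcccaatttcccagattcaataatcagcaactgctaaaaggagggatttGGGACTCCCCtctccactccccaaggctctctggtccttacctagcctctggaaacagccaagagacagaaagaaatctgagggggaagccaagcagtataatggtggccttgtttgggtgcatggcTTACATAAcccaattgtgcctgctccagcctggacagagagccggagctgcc
Steap4, chr5:7960222-7960456, plus strand: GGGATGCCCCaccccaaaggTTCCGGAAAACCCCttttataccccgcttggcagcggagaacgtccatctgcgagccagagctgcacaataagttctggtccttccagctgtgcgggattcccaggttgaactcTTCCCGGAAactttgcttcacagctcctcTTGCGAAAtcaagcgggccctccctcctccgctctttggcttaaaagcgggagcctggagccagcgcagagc
In Chil1 the NF-kB match is GGGACTCCCC, 179 to 170 bases before the start, and the C/EBP match is TTACATAA, 52 to 45 bases before it. Steap4 holds GGGATGCCCC and GGAAAACCCC for NF-kB, TTCCGGAA and TTGCGAAA for C/EBP, and TTCCCGGAA for STAT, where GGAAAACCCC and TTCCGGAA overlap. Over the 250 bases upstream of the start, searched on both strands, Lcn2 had 1 match, TTGCTCAA for C/EBP, 216 to 209 bases before the start. Vim had 3 NF-kB matches, of which 2 overlap, and 1 C/EBP match. Serpina3n had 2 C/EBP matches, Timp1 had 1 and Cp had 1 in each of its 2 windows. Osmr, S1pr3 and Cd44 held none of these letters in this window. The windows were placed by RefSeq starts, and those of Lcn2, Osmr and Vim lay wholly inside the GENCODE gene spans given below. Of Cp, 1 window lay partly inside, as did the uncut window of Steap4. Of 32851 mouse promoter windows of the same length, 7.0% held the STAT motif, 7.3% the NF-kB consensus and 36.8% the C/EBP motif.

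Chil1 codes for a secreted chitinase-like protein that astrocytes make and that in humans is known as YKL-40. The gene (ENSMUSG00000064246) lies on the plus strand of chromosome 1 (GRCm38, 134182176 to 134190181). It was at 816, 721 and 756 normalized counts in dCas 1, 2 and 3, and LINE-1a 1, 2 and 3 had 326, 202 and 294. All 3 LINE-1a libraries lay below all 3 dCas libraries, and the gap between the groups was wider than either group's range. The means were 765 ± 48.0 and 274 ± 64.3 (SD, n = 3 each), a ratio of 2.79 in favour of dCas. On the log2(normalized count + 1) scale, used for all fold changes here, the difference was -1.50 ± 0.20 (SE). The counts behind it were 980 to 1134 reads in dCas and 251 to 404 reads in LINE-1a libraries. In LINE-1a 3, the male LINE-1a library, the shift from the dCas mean was -1.37, between those of LINE-1a 1 (-1.23) and LINE-1a 2 (-1.91). Chil1 was called at an adjusted p of 0.0227 by limma. The call was lost without dCas 2 (limma adjusted p = 0.127), without dCas 3 (0.0850) and without LINE-1a 3 (0.111), with a log2 fold change of -1.51 to -1.57 in each. It was also lost with sex as a covariate (limma adjusted p = 0.773) and in the male libraries alone (0.268), both of which set LINE-1a 3 alone against the dCas libraries.

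Astrocyte markers were set beside Chil1. Of 12 astrocyte and Bergmann glia markers, 10 had a log2 fold change below 0, with a median of -0.44, and Sox9 (0.09) and Slc6a11 (0.09) were above 0. Of the 12, 0 passed the limma threshold and 9 overlapped between the groups. Over all features tested, 47.1% were below 0, 0.146% passed and 22.1% had groups that did not overlap. The summed level of all 12 was 253046 to 279901 in dCas and 112002 to 235254 in LINE-1a libraries, without overlap. Gja1, the main astrocyte gap junction protein, had a log2 fold change of -0.90 and Aldoc, a glycolytic enzyme of astrocytes and Purkinje cells, one of -0.83. Aldoc was also the largest part of the sum, at 102165 to 117556 in dCas and 43896 to 82531 in LINE-1a libraries. Fewer astrocytes and less RNA per astrocyte cannot be told apart in such bulk samples. Per 1000 counts of these markers, Chil1 was 2.70 to 3.23 in dCas and 1.39 to 1.81 in LINE-1a vermis, again without overlap. Against Gfap, the astrocyte filament protein, the groups did overlap: Chil1 was 6.77%, 9.43% and 8.02% of Gfap in dCas 1, 2 and 3, and 3.70%, 7.76% and 4.65% in LINE-1a 1, 2 and 3. The part of astrocyte content in the lower Chil1 was not tested.

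The nearest tested genes on either side of Chil1 did not share its shift. Btg2 starts 107 kb to the left and had a log2 fold change of 0.19, and Mybph starts 11.3 kb to the right and had one of 0.05. This check, made after the values of Chil1 were known, was extended to all 10 genes. Of their 20 neighbours, 0 passed the limma threshold. Only 0.146% of all features tested passed it, so nothing is read from this count.

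**Figure D1:**
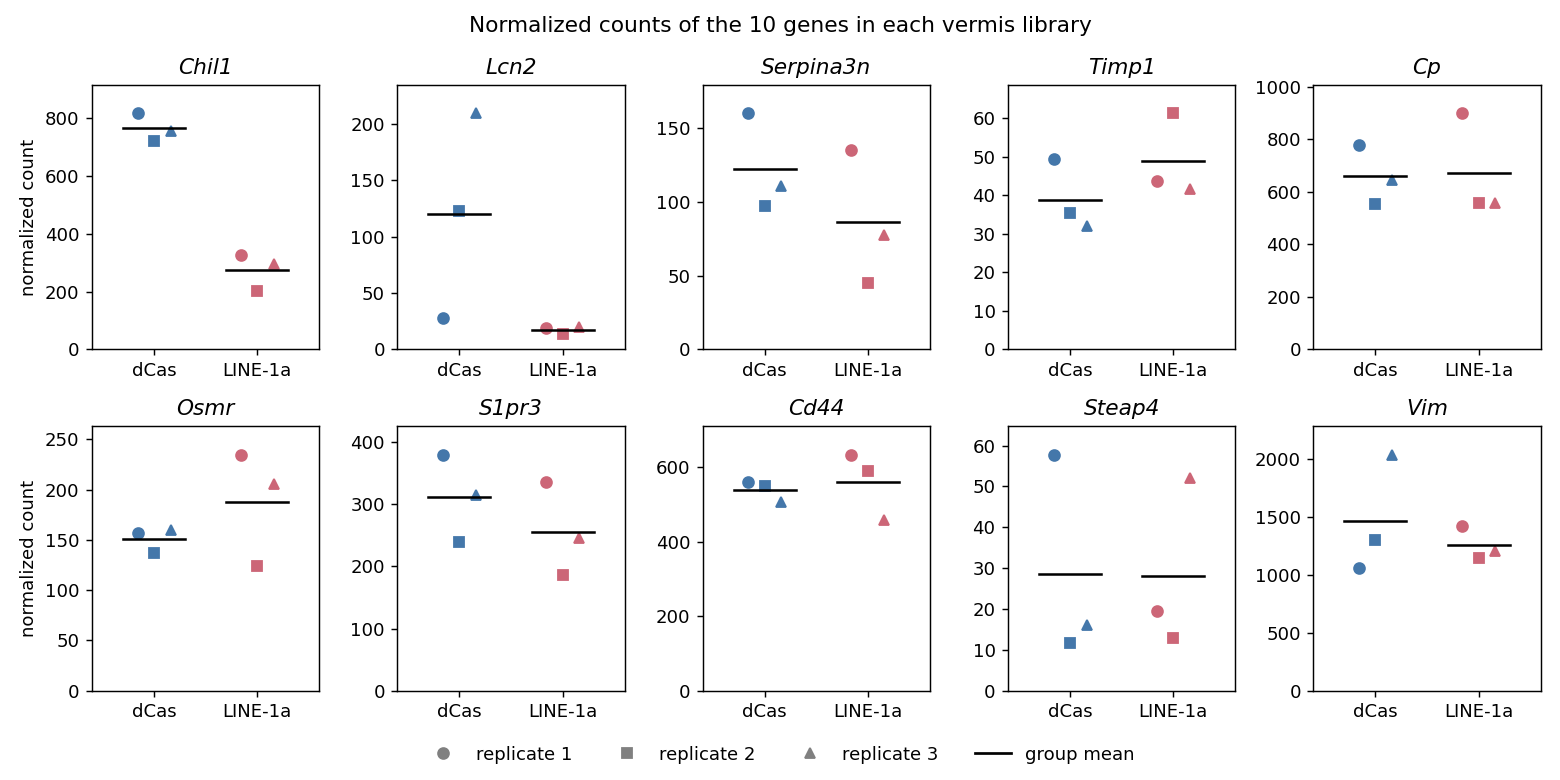
Normalized counts (vertical axes, each from 0) of the 10 genes in the 3 dCas and 3 LINE-1a libraries; points are libraries, shapes are replicate numbers and lines are group means. Chil1 separates the groups, with 202 to 326 in LINE-1a and 721 to 816 in dCas libraries, while 2 dCas libraries carry the high Lcn2 mean.

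Lcn2 codes for lipocalin-2, a secreted protein that binds bacterial iron carriers and that reactive astrocytes and endothelium release. It lies on the minus strand of chromosome 2 (32384633 to 32388252). Its level was 27.7 in dCas 1, 122.9 in dCas 2 and 209 in dCas 3, while LINE-1a 1, 2 and 3 had 18.6, 13.7 and 19.6. The groups did not overlap, but dCas 1 lay far nearer to the LINE-1a libraries than to the other dCas libraries. The dCas libraries thus differed 7.55-fold among themselves and the LINE-1a libraries 1.43-fold. Group means were 120.0 ± 90.9 and 17.3 ± 3.16, with a log2 fold change of -2.33 ± 0.62 (SE). Lcn2 did not pass the limma threshold (adjusted p = 0.325). Without dCas 1 the log2 fold change was -3.16 and Lcn2 passed (limma adjusted p = 0.00607), as it did with all 6 libraries in DESeq2 (adjusted p = 0.000166). It did not pass without dCas 2 (limma adjusted p = 0.591) or without dCas 3 (0.582). Nor did it pass without any single LINE-1a library (limma adjusted p = 0.0997 to 0.635). LINE-1a libraries held only 17 to 26 Lcn2 reads each, so their levels rest on few counts. The SD of log2 Lcn2 within dCas, 1.49, was larger than that of 99.7% of the 15800 features tested, whereas within LINE-1a it was 0.26, larger than 51.1%.

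The library that set dCas 1 apart in Lcn2 was also 1 of the 3 with much choroid plexus RNA. Lcn2 was 27.7 in dCas 1, where the choroid plexus sum was 149105, and 18.6 in LINE-1a 1, where that sum was 8708. High and low choroid plexus content thus both occurred among the 4 libraries of low Lcn2, while both libraries of high Lcn2 had little of it. Neutrophils, which store lipocalin-2 protein in their granules, left little trace. Of their 8 markers only Ngp and S100a8 reached a mean of 10, and the 8 summed to 55.4 to 107 in dCas and 52.1 to 71.0 in LINE-1a libraries. The highest sum, 107, was that of dCas 1, the dCas library lowest in Lcn2. The part of either cell type in the Lcn2 values was not tested.

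Of the other secreted proteins, Serpina3n (chromosome 12, 104406729 to 104414329, plus strand), a serine protease inhibitor that reactive astrocytes make, was at 160.3, 97.2 and 111 in dCas 1, 2 and 3. In LINE-1a 1, 2 and 3 it was at 136, 45.2 and 77.8. LINE-1a 1 lay within the dCas range and the other two below it, with a log2 fold change of -0.61 ± 0.38 (SE). Leaving out LINE-1a 1 moved this to -1.0 and leaving out LINE-1a 2 to -0.22, without a call in either case. The inhibitor Timp1, which blocks matrix metalloproteinases, lies on the plus strand of chromosome X (20870166 to 20874735) and was at 49.3, 35.3 and 32.0 in dCas and 43.6, 61.3 and 41.5 in LINE-1a libraries. The ranges of Timp1 overlapped, with LINE-1a 2 highest, and the log2 fold change was 0.32 ± 0.29. LINE-1a 1 and LINE-1a 3, of different sex, both lay within the range of the dCas libraries. Cp (chromosome 3, 19957054 to 20009145, plus strand) codes for ceruloplasmin, a copper enzyme that oxidizes iron and is anchored on astrocytes, and it was at 779.9, 553 and 646 in dCas and 899, 557 and 559 in LINE-1a libraries. Replicate 1 was the highest of each group, the ranges overlapped, and the log2 fold change of Cp was 0.00 ± 0.22.

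Among the receptors, Osmr (chromosome 15, 6813577 to 6874969, minus strand), the oncostatin M receptor chain that pairs with gp130, was at 156, 137 and 159 in dCas 1, 2 and 3. In LINE-1a 1, 2 and 3 it was at 235, 124 and 205. LINE-1a 1 and LINE-1a 3 lay above every dCas library and LINE-1a 2 below them all, with a log2 fold change of 0.27 ± 0.25 (SE) and no call. The difference was 0.54 without LINE-1a 2 and 0.09 without LINE-1a 1, and Osmr passed in neither case. Per 1000 counts of astrocyte markers, Osmr was 0.540 to 0.618 in dCas and 0.999 to 1.19 in LINE-1a vermis, without overlap. The same held for Cp, at 2.18 to 3.08 and 3.24 to 4.97, and for Cd44, at 1.82 to 2.21 and 2.65 to 5.26. Lcn2 overlapped between the groups on this scale, at 0.110 to 0.748 in dCas and 0.079 to 0.122 in LINE-1a vermis. Serpina3n, Timp1, S1pr3, Steap4 and Vim overlapped as well. The marker sum by which these counts are divided was itself lower in every LINE-1a library. Division by it raises genes whose own counts differ little, such as Cp and Cd44 (log2 fold changes 0.00 and 0.04). The share of all features without overlap after this division was not computed, so nothing is read from the genes that separate. These ratios were formed after the values were seen and have no test.

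S1pr3 (chromosome 13, 51408639 to 51422797, plus strand), a receptor for the lipid sphingosine-1-phosphate, was at 379.95, 239 and 314 in dCas and 335, 186 and 245 in LINE-1a libraries. The groups overlapped and the log2 fold change of S1pr3 was -0.30 ± 0.25 (SE). It was -0.09 without LINE-1a 2, -0.14 without dCas 1 and -0.51 without LINE-1a 1. Cd44 (chromosome 2, 102811141 to 102901665, minus strand), the cell-surface receptor for hyaluronan, was the steadiest of the 10 over all libraries, with a highest level 1.39 times the lowest. Its values were 560.3, 549 and 508 in dCas and 635, 589.6 and 458 in LINE-1a libraries, and its log2 fold change was 0.04 ± 0.17.

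Steap4 (chromosome 5, 7960457 to 7982213, plus strand), a membrane reductase of iron and copper ions, was at 57.8, 11.8 and 16.01 in dCas 1, 2 and 3. In LINE-1a 1, 2 and 3 it was at 19.4, 12.9 and 52.1. One library of each group, dCas 1 and LINE-1a 3, stood above the other 4, and the log2 fold change was 0.08 ± 0.64 (SE). The value turned to -0.47 without LINE-1a 3 and rose to 0.74 without dCas 1. The low libraries rest on 16 to 24 Steap4 reads each. dCas 1 and LINE-1a 3 were also the 2 libraries with the largest choroid plexus sums, 149105 and 159493. LINE-1a 2, with an intermediate sum of 44433, had low Steap4. The related gene Steap1, likewise, was at 192 in dCas 1 and 257 in LINE-1a 3 against 8.88 to 53.2 in the other 4 libraries. The part of choroid plexus RNA in these values was not tested.

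Vim (chromosome 2, 13573927 to 13582826, plus strand) codes for vimentin, the filament protein that reactive and immature astrocytes, endothelium and fibroblasts share. It was at 1060.5, 1303 and 2039 in dCas and 1423, 1144 and 1209.6 in LINE-1a libraries. Only dCas 3 stood above the rest, and the log2 fold change of Vim was -0.17 ± 0.23 (SE), or 0.09 without dCas 3. The 2 dCas libraries with the most Vim, dCas 3 and dCas 2, were also the 2 with the most Lcn2. In LINE-1a vermis Vim was highest in LINE-1a 1, and Lcn2 in LINE-1a 3.

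**Figure D2:**
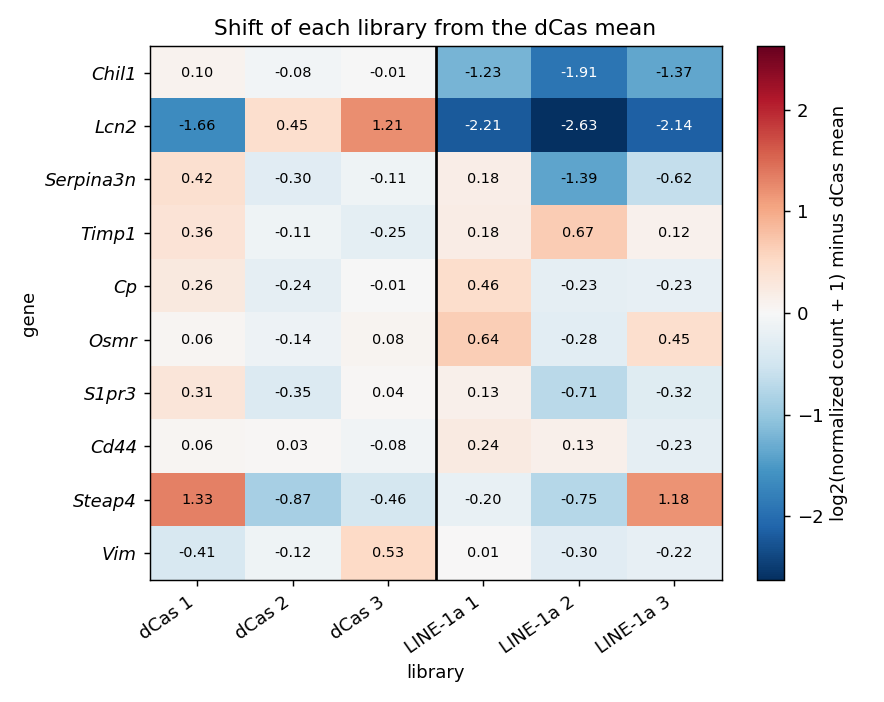
Shift of each library (columns) from the dCas mean of each gene (rows), as a difference of log2(normalized count + 1), printed in each cell and coloured from blue (lower) to red (higher). Chil1 and Lcn2 are the rows that are blue in all 3 LINE-1a libraries with no overlap, and Lcn2 is also low in dCas 1, at -1.66.

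All 10 genes passed the minimum mean of 10, 5 had positive and 5 negative log2 fold changes, and their median was -0.09 beside 0.03 over all 15800 features tested. In limma 1 of the 10, Chil1, was called as lower and 0 as higher, where 0.146% of the features tested were called, 0.0127% as lower and 0.133% as higher. Chil1 and Lcn2 were the 2 of 10 whose groups did not overlap, both lower, where 22.1% of the features tested had groups that did not overlap, 12.3% lower and 9.88% higher. Because the genes were chosen with this contrast in view, nothing is read from these counts. By library, the number of the 10 above their dCas mean was 7 for LINE-1a 1, 2 for LINE-1a 2 and 3 for LINE-1a 3. Among the dCas libraries this number was 8 in dCas 1, 2 in dCas 2 and 4 in dCas 3, so the libraries of 1 group differed about as widely.

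Levels between genes can be compared only per length, here as normalized counts per kb of the gene's merged GENCODE exons. In dCas vermis Vim was highest on this scale (309 ± 107, SD), followed by Chil1 (273 ± 17.1), whose range of 257 to 291 lay inside that of Vim. Cd44 (79.6 ± 4.05), S1pr3 (69.7 ± 15.8), Cp (69.0 ± 11.9), Serpina3n (59.5 ± 16.1), Lcn2 (45.8 ± 34.6) and Timp1 (43.8 ± 10.3) followed, and each overlapped the next. Osmr (12.5 ± 1.01) and Steap4 (9.04 ± 8.06) were lowest and overlapped as well. In LINE-1a vermis Vim was at 265 ± 30.8 and Chil1 at 97.8 ± 22.9, so that these 2 ranges no longer met. Chil1 then overlapped Cd44 (82.7 ± 13.6), Cp (70.2 ± 20.6) and S1pr3 (57.3 ± 16.8). Lcn2 was at the bottom of the order there, at 6.60 ± 1.20 beside Steap4 at 8.92 ± 6.66.

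**Figure D3:**
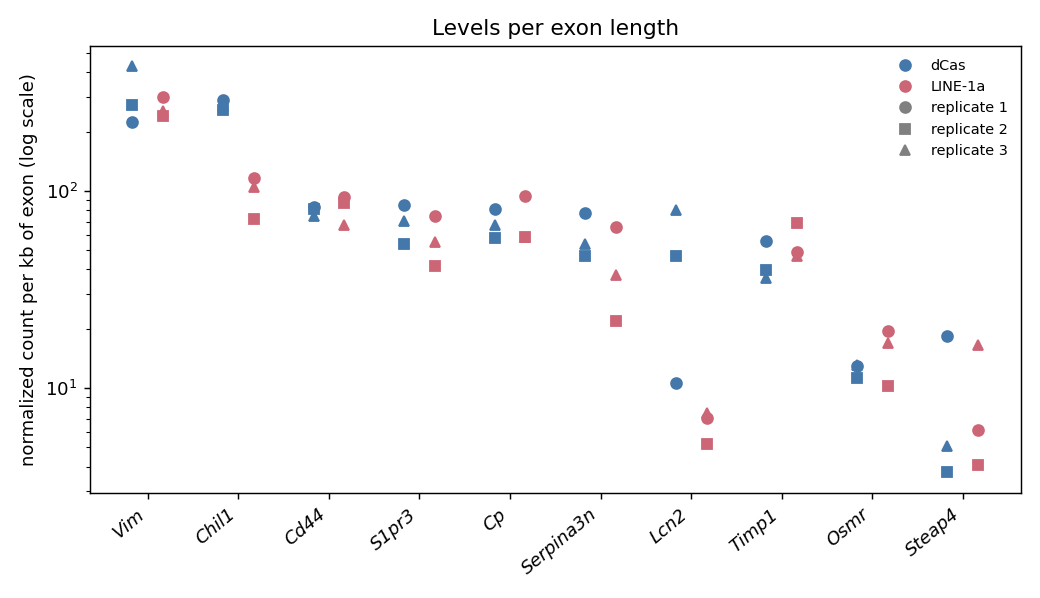
Normalized counts per kb of exon (vertical log axis) for the 10 genes, ordered by the dCas mean; points are libraries, colours are groups and shapes are replicate numbers. Chil1 lies beside Vim in dCas libraries, at 257 to 291 per kb, and beside Cd44 in LINE-1a libraries, at 72.2 to 116.

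The genes also varied between animals of 1 group. Chil1, Serpina3n, Cp and S1pr3 had the same order of libraries in both groups, with replicate 1 highest, replicate 3 next and replicate 2 lowest. Gfap had that order too, while the order of Cp rests in part on near-equal values in LINE-1a 3 (559) and LINE-1a 2 (557). This order was noticed in these genes, which also follow each other, so it is a description. It occurred in 4.76% of all features tested and in 2 of the 12 astrocyte markers. The numbers only name the animals, and mice with the same number are not known to be related. On the log2 scale, deviations of Chil1 from its group mean followed those of Gfap over the 6 libraries with a Pearson r of 0.993. For Osmr the r with Chil1 was 0.984 and for Serpina3n 0.933. Without LINE-1a 2, the library lowest in astrocyte markers, the r was 0.996 for Gfap, 0.831 for Osmr and 0.986 for Serpina3n. Such r values over 6 libraries with 2 group means removed are descriptions. For Chil1 and Lcn2 the r within groups was -0.03, and without LINE-1a 2 it was -0.63. Over the 45 pairs of the 10 genes the median r was 0.16, with 9 pairs over 0.8 and 1 under -0.8. The SD of log2 Chil1 within dCas, 0.09, was larger than that of only 20.6% of the features tested. Within LINE-1a it was 0.36, larger than that of 70.1%.

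**Figure D4:**
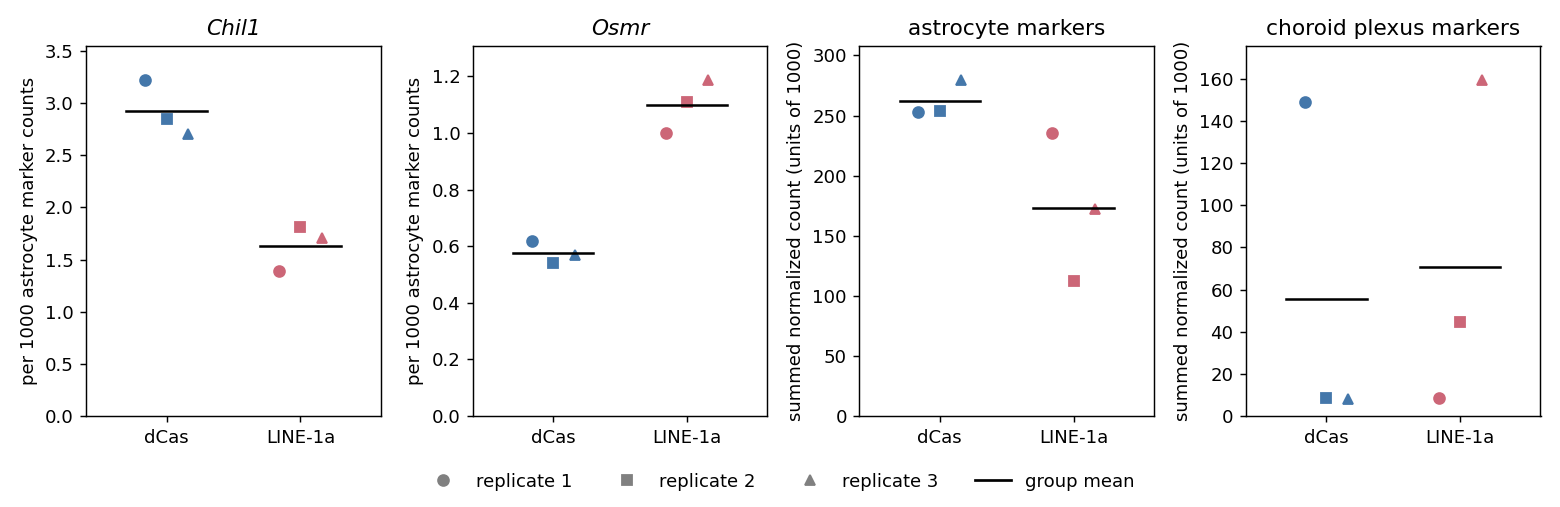
From left to right, Chil1 and Osmr per 1000 normalized counts of 12 astrocyte markers, and the summed normalized counts (in units of 1000) of the astrocyte and choroid plexus markers; points are libraries and lines are group means. Chil1 is lower (1.39 to 1.81 against 2.70 to 3.23) and Osmr higher (0.999 to 1.19 against 0.540 to 0.618) in LINE-1a libraries, as Cp and Cd44, not drawn, also are. The other genes of the report, not drawn, overlapped on this scale. The marker sum that divides each count is itself lower in every LINE-1a library. The most choroid plexus RNA is in dCas 1 and LINE-1a 3.

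Further genes of the reactive state and of the pathways of the 10 genes were taken from 15 lists. Of their 138 genes, 109 were tested, and limma called 0 of them, while 8 were higher and 8 were lower with an unadjusted limma p below 0.05. Over all 15800 features tested these numbers were 1255 and 1162, so the share among the list genes was near the background. edgeR also called 0, and DESeq2 called 1, Sult1a1. Their median log2 fold change was 0.00, beside 0.03 for all features tested.

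Of the other genes common to all reactive astrocytes, the filament gene Gfap averaged 9713 ± 2217 in dCas and 5922 ± 3129 in LINE-1a mice, a difference of -0.86 on the log2 scale. Gfap overlapped between the groups, with LINE-1a 2 lowest at 2609.999 and dCas 1 highest at 12059. Aspg was at 0.02 and Hspb1, a small heat shock protein, at 0.25, and the median of the 3 tested genes was 0.02. The A1 genes, which astrocytes raise after bacterial endotoxin, had a median of 0.17, with 11 of 12 above 0. Over all features tested, 8365 of 15800 were above 0, and Ggta1, Ugt1a1, Amigo2 and Gbp2 lay at only 0.00 to 0.03. The 2 of smallest p among the 12 were Psmb8 and Fbln5. Psmb8, a subunit of the immunoproteasome, was 55.2 ± 27.2 and 135 ± 36.6 (log2 fold change 1.36). Fbln5, an elastic fibre protein, was 95.0 ± 38.0 and 184 ± 2.82 (log2 fold change 1.03). Both were higher in every LINE-1a library than in any dCas library, without passing the threshold. The A2 genes, which astrocytes raise after ischaemia, had a median of -0.08, with 2 of 9 above 0. Emp1, a membrane protein, had means of 52.4 in dCas and 104 in LINE-1a mice, and B3gnt5, a glycolipid enzyme, had a log2 fold change of -0.51.

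**Figure D5:**
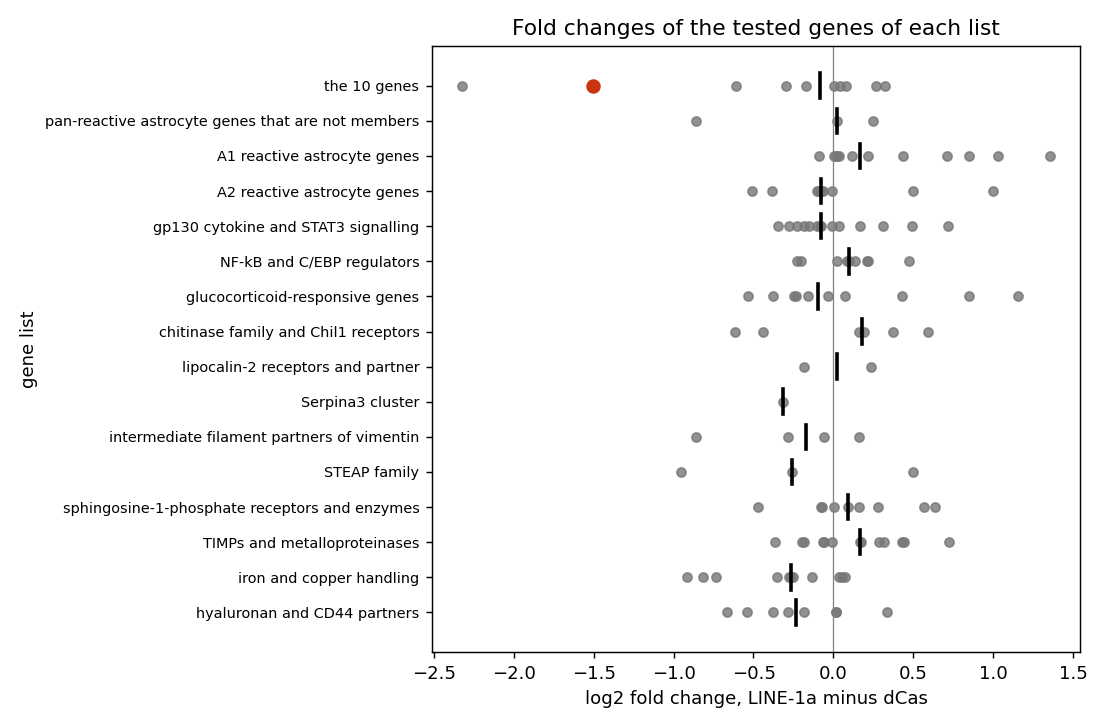
Log2 fold changes (horizontal axis, LINE-1a minus dCas) of the tested genes of each list (rows); points are genes, black bars are list medians, and red marks Chil1, the only gene shown that passed the limma threshold. The medians run from -0.31, a list of 1 gene, to 0.18.

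Among signalling genes, those of gp130 cytokines and STAT3 had a median of -0.08, with 5 of 14 above 0. Il6st, which codes for gp130, was at -0.35 and Il6ra, the interleukin-6 receptor, at 0.72. Stat3 itself was 628 ± 58.3 and 703 ± 43.0, and the cytokines Il6, Lif and Osm were below the minimum mean. NF-kB and C/EBP regulators had a median of 0.10, with Nfkb1 at 0.48 and Rela at -0.23 and 7 of 9 above 0. Genes that respond to glucocorticoids had a median of -0.09, with 4 of 10 above 0. Of these, Sult1a1, a sulfotransferase, averaged 189 ± 46.0 in dCas and 415 ± 51.9 in LINE-1a mice, higher in each of the 3 (limma adjusted p = 0.116), and Fkbp5, a chaperone of the glucocorticoid receptor, was at 0.85.

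Partners of the secreted proteins were measured too. The chitinase family and Chil1 receptors had a median of 0.18 over 6 tested genes, 4 of them above 0. Chid1, a chitinase-domain protein, was 1638 ± 31.6 and 1225 ± 235 (log2 fold change -0.44), and Ctbs, a lysosomal chitobiase, was at 0.37. Chit1 and Chil3, close relatives of Chil1, stayed under the minimum mean, at 1.62 to 14.6 and 2.94 to 7.71 in the 6 libraries. Lipocalin-2 receptors and partner had 2 tested genes, the receptor Slc22a17 at 0.24 and the protease Mmp9 at -0.18, and a median of 0.03. In the Serpina3 cluster, whose near-identical copies make the split of reads uncertain, only Serpina3g was tested, at -0.31. The iron and copper genes had a median of -0.27, with 3 of 11 above 0. Heph, a ferroxidase related to Cp, was 168 ± 24.0 and 97.1 ± 26.0 (log2 fold change -0.82), and Hmox1, which breaks down haem, was at -0.73. TIMPs and metalloproteinases had a median of 0.17, with 7 of 13 above 0, Mmp16 at 0.43 and the protease inhibitor Reck at 0.73.

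For the membrane and filament genes, the STEAP family had a median of -0.26, with 1 of 3 above 0. Steap3 was 132 ± 44.8 and 66.7 ± 17.7, without overlap (log2 fold change -0.95), and Steap2 was at -0.26. The sphingosine-1-phosphate list had a median of 0.09, with 6 of 9 above 0, the kinase Sphk2 at -0.47 and the receptor S1pr4 at 0.63. Hyaluronan and CD44 partners had a median of -0.24, with 3 of 8 above 0, the hyaluronidase Hyal2 at -0.54 and Msn, which links CD44 to actin, at -0.67. The filament partners of vimentin had a median of -0.17, with 1 of 4 above 0 and Nes, the neural stem cell filament nestin, at -0.28. None of these genes passed the limma threshold.

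The remaining marker lists served to describe the tissue. Their median log2 fold changes were 0.05 for meninges, -0.32 for endothelium, -0.16 for pericytes and smooth muscle, -0.25 for ependyma and 0.08 for microglia. They were -0.23 for neutrophils, -0.19 for red blood cells, -0.36 for Purkinje cells and -0.04 for granule cells. No gene of these lists passed the limma threshold.

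Across the 6 libraries genes most like Chil1 included Cenpl (Pearson r = 0.994), Zfp867 (0.994), Traf1 (0.992) and Nmral1 (0.991), out of 12936 genes with a mean of at least 50. Their likeness to Chil1 fixes that they too were lower in LINE-1a libraries, and Traf1 had means of 208 ± 20.0 in dCas and 93.9 ± 18.3 in LINE-1a mice. With 492 genes above an r of 0.9, this likeness over 6 libraries is not particular to the genes named. The genes most like Lcn2 were Pmm1 (0.994), Dpf1 (0.988), Adam19 (0.986), Fitm2 (0.983) and Anapc2 (0.981), and 154 genes were above 0.9. Like Lcn2, Anapc2 was high in dCas 2 (2103) and dCas 3 (2362) only, with 669.7 in dCas 1 and 614 to 674 in LINE-1a libraries.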

How the data were processed

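Total RNA of the cerebellar vermis of 6 mice was sequenced from libraries of the NEBNext Ultra II kit, per the labels' protocols. The authors deposited normalized counts, a signal in which each library's reads are divided by its size factor. Per the submitters' processing notes, the builds were mm10 and GRCm38 and the tools were DESeq2, SAMtools 1.9, bedtools 2.27.1, Bowtie2 2.2.9 and STAR 2.5.3a, with no roles stated. The sources used here do not give the counter, the annotation or the use of strand. All gene values (100%) were whole multiples of what 1 read is worth (tolerance 0.001 reads), so reads could be recovered. Of 21927 rows, 890 are repeat elements, told apart by the names in the deposited table of repeat signal, and 224 are all 0. Endogenous retrovirus loci were not analysed here.

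The main test was limma-trend 3.58.1 (R 4.3.3) on log2(normalized count + 1), two-sided, over the 15800 features whose mean reached 10, with Benjamini-Hochberg adjustment over all of them and a threshold of 0.05. The test was also run on simulated reads in which some genes were raised in the LINE-1a group. That simulation held no lowered genes and no sex difference, so it cannot speak for the values of Chil1 and Lcn2. Fold changes on this scale understate the change of low genes. The recovered reads were also tested with DESeq2 1.42.0 and with edgeR 4.0.16, which called 23 features. Positions and exon lengths come from GENCODE M21 (GRCm38). The 10 genes, the lists and the tests were chosen with earlier results of these data known. The rule for naming genes took all 10, each list gene past the threshold or else the 2 of smallest p, and the 5 genes most correlated with Chil1 and with Lcn2, of which 1 is not reported here; Stat3, Chit1, Chil3, Aspg, Steap1, Ttr and the neighbouring genes were added after their values were seen.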

Additional observations from a re-analysis of the deposited data

How the results depend on the processing

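Calls depended on the tool and on single animals. Of 19 alternatives, 10 kept the number of called features within 1.5 times the 23 of the limma test (21 higher, 2 lower). It was 36 with equal totals per library, 142 in DESeq2 (100 higher, 42 lower), 1220 with array weights, 3 with sex as a covariate and 0 in the male libraries alone, and 11 to 40 with 1 library left out. Of the 10 genes, 1 was called in 11 alternatives. The number was 2 (Chil1 and Lcn2) in DESeq2 and with array weights, 0 with the sex covariate and 0 in the male libraries alone, and 0 to 2 with 1 library left out. The causes were not tested, beyond fewer samples in the last kinds. The log2 fold change of Chil1 stayed between -1.64 and -1.30 and passed in 14 of 19 alternatives, and that of Lcn2 stayed between -3.16 and -1.72 and passed in 3. With the sex covariate they were -1.37 and -2.14, which compares LINE-1a 3 alone with the dCas libraries. Equal totals moved the median of all features from 0.03 to 0.15. The signs of Cp (-0.23 to 0.13), Cd44 (-0.24 to 0.18), Steap4 (-0.47 to 1.25) and Vim (-0.38 to 0.09) changed between alternatives, while Serpina3n (-1.0 to -0.22), S1pr3 (-0.51 to -0.09), Osmr (0.09 to 0.54) and Timp1 (0.12 to 0.50) kept theirs. With the replicate number as a block, 24 features and 1 of the 10 genes were called. Deviations from the group mean in same-numbered libraries correlated at -0.21, 0.14 and -0.10. With only 3 libraries per group, these values cannot decide whether same-numbered mice were paired. Depth limits Steap4 and Lcn2, at 16 and 17 reads in their lowest libraries.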
